A study of Mus musculus with 5 samples.

Results

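Acetylated histones were examined at 5 genes of the Ly6 cluster on mouse chromosome 15, *Ly6a*, *Ly6c1*, *Ly6c2*, *Ly6e* and *Ly6k*, out of 55413 annotated genes, of which 21938 encode proteins. The genes were taken by name, and a peak was counted at a gene when it overlapped the gene body or the 10 kb on either side of it. Peak lists came from chromatin immunoprecipitation and sequencing (ChIPseq) of CD8+ T cells of memory type (TM cells), activated first and then kept in IL-15, in 2 libraries from wildtype (WT) mice and 3 from TPdh-/- mice. TPdh-/- mice carry a deletion of *Pdha*, which encodes a subunit of the pyruvate dehydrogenase complex, made with a Cre recombinase under control of CD4, so that it acts in the T cell lineage and not only in TM cells. The methods describe young adult mice of both sexes for the study as a whole. For differentiation they describe OT-I cells activated with OVA peptide, while the legend for the ChIPseq data names splenic T cells. The sources used here do not give the floxed or Cre alleles of the WT mice, which age or sex is behind each library, or whether each library came from a separate animal, so the tests measure only the spread between these libraries. The antibody is described for acetylated lysine of histones in general in the methods and as acetyl K18 in the labels. The comparison asks whether acetylated chromatin at these genes differed between cells with and without the complex, which makes acetyl-CoA from pyruvate.

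Ly6 proteins are small, cysteine-rich proteins of the cell surface, most of them held in the membrane by a glycosylphosphatidylinositol anchor. *Ly6c1* and *Ly6c2* encode the near-identical proteins detected as Ly6C, a surface marker of memory CD8+ T cells and of monocytes, and the study stained for Ly6C in TM cells. *Ly6a* encodes Sca-1, a marker of hematopoietic stem cells that activated T cells also carry, *Ly6e* encodes a broadly expressed, interferon-inducible protein, and *Ly6k* encodes a protein of male germ cells. Acetylated histones mark promoters and enhancers in use, and a peak is a stretch where the immunoprecipitated reads exceeded the background estimated by MACS2, the peak caller.

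Each deposited peak has a position, a fold enrichment over background on a linear scale, and a −log10 q, where a higher value is a stronger call. The lists held 15962 and 8859 peaks in WT 1 and WT 2 and 4920, 5419 and 9418 peaks in TPdh-/- 1, 2 and 3. The number of reads behind each list is unknown, so each peak is also given by its rank on −log10 q and by its percentile, the percent of peaks in the same list that rank below it. A percentile moves with the length of the list, since a longer list reaches further down among weak peaks. Of the 8 T cell marker genes, 8 and 5 had a peak within 3000 bp in WT 1 and WT 2, and 2, 4 and 5 did in TPdh-/- 1, 2 and 3, with *Lck* and *Cd8b1* in all 5. Of markers of other cells, the same lists in that order had a peak at 3, 1, 1, 1 and 2 of 5 B cell genes (*Cd79a* in all 5), 1, 1, 1, 0 and 1 of 5 myeloid genes, 2, 1, 0, 0 and 1 of 2 genes of CD4+ T cells, and none of 2 NK cell or 2 erythroid genes. The share of all genes with a peak within 3000 bp was not computed, so the marker counts cannot be set against it. The part of other cells in the results was not tested. With 2 libraries against 3, the smallest two-sided p of an exact permutation test is 0.2, so no comparison of the genotypes could pass 0.05.

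Peaks were listed at *Ly6e*, *Ly6c2* and *Ly6a*, and none at *Ly6c1* or *Ly6k*. *Ly6e* and *Ly6c2* had a peak in all 5 lists, and *Ly6a* had one in 4, all but TPdh-/- 2. Across all annotated genes, 33.2% and 21.8% had a peak within 10 kb in WT 1 and WT 2, and 13.8%, 14.7% and 23.5% in TPdh-/- 1, 2 and 3. Among protein-coding genes these shares were 54%, 36.4%, 23.2%, 24.7% and 39.2%. All 5 lists had a peak at 10% of annotated genes and 17.1% of protein-coding genes, and no list at 65% and 43.9%. Of the 5 Ly6 genes, 2 had a peak in all lists, 2 in none and 1 in 4 lists, and no test was made over so few genes.

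The peaks fell into 5 regions after peaks of different lists that overlapped were joined, out of 13 regions in a stretch of the cluster that runs from *Psca* to beyond *Ly6g*. Of the 18410 joined regions of the genome, 16.8% had a peak in all 5 lists, and 2 of the 5 at the Ly6 genes did, the start site of *Ly6e* and the upstream side of *Ly6c2*.

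**Figure D1:**
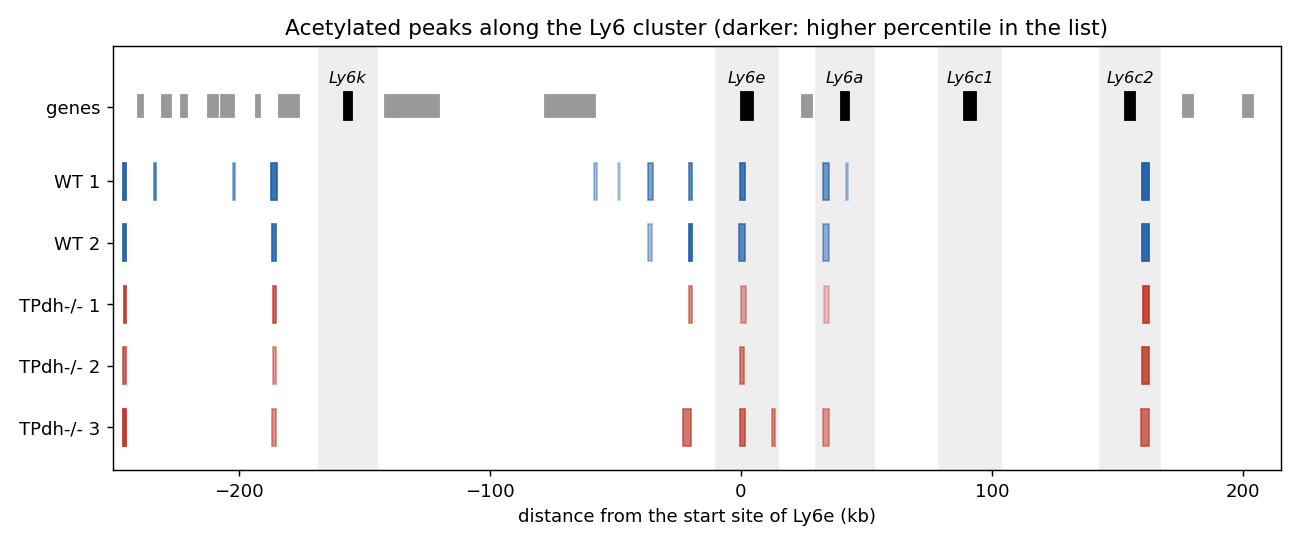
Map of the Ly6 cluster. The horizontal axis is the distance in kb from the start site of *Ly6e*, with genes in the top row (the 5 members in black, other Ly6 genes in grey) and the peaks of each library in a row of its own, darker for a higher percentile. Grey bands are the gene bodies with 10 kb on either side. The bands of *Ly6k* and *Ly6c1* hold no peak in any of the 5 rows, and those of *Ly6e* and *Ly6c2* hold one in every row.

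*Ly6c2* (ENSMUSG00000022584.14) lies on the minus strand of chromosome 15 from 75108158 to 75111970 in GRCm38, a body of 3813 bp, and it had the highest-ranking peak of the 5 genes in every list but TPdh-/- 3. The peak lay upstream of the gene, outside its exons and introns, and *Ly6c2* was the nearest gene in every list. In WT 1 it ran from 75114759 to 75117548, ending 2789 bp upstream of the gene, with a width of 2790 bp. In WT 2 it ran from 75114923 to 75117523, 2953 bp upstream. The TPdh-/- peaks ran from 75115258 to 75117539, from 75114896 to 75117496 and from 75114518 to 75117555, at 3288, 2926 and 2548 bp upstream in TPdh-/- 1, 2 and 3. The 5 peaks shared 2239 bp, from 75115258 to 75117496. The far edge was therefore nearly the same in all libraries, and the edge facing the gene varied more.

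The −log10 q of the *Ly6c2* peak was 12.1 in WT 1, 7.10 in WT 2, 5.15 in TPdh-/- 1, 4.71 in TPdh-/- 2 and 4.36 in TPdh-/- 3. The ranks behind these values were 883, 940, 565, 1091 and 3397, and the percentiles 94.5, 89.4, 88.5, 79.9 and 63.9. Both WT lists were above all 3 TPdh-/- lists on −log10 q and on percentile, while by rank alone the first place was in TPdh-/- 1, the shortest list. The −log10 q averaged 9.59 ± 3.52 (SD, n = 2) for WT against 4.74 ± 0.398 (SD, n = 3) for TPdh-/-, a difference of 4.85 (exact permutation test, two-sided, p = 0.2). Its percentile averaged 91.9 ± 3.59 in WT and 77.4 ± 12.5 in TPdh-/-, a difference of 14.5 (exact permutation test, two-sided, p = 0.2). Such an order was common in these lists, since of the 3099 regions with a peak in all 5, 33.2% had a higher −log10 q in both WT lists than in every TPdh-/- list, and 29.5% had a higher percentile. When each list was limited to its 4920 strongest peaks, the length of the shortest list, the percentiles were 82.1 and 80.9 in WT and 88.5, 77.8 and 31.0 in TPdh-/-, and the groups overlapped.

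The fold enrichment of the *Ly6c2* peak took the same order as its −log10 q in all lists but TPdh-/- 1, which had the highest fold. It was 2.19 and 2.17 in WT and 2.39, 2.14 and 1.95 in TPdh-/-, so that the WT values fell inside the range of the TPdh-/- values. The means were 2.18 ± 0.0153 (SD, n = 2) and 2.16 ± 0.218 (SD, n = 3; exact permutation test, two-sided, p = 0.8). The peak was 2790 and 2601 bp wide in the WT libraries, against 2282, 2601 and 3038 bp with TPdh-/-, a mean of 2696 ± 134 against 2640 ± 380 bp (exact permutation test, two-sided, p = 1). The widest and the narrowest *Ly6c2* peak were thus both in TPdh-/-.

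The promoters of *Ly6c2* and *Ly6c1* are shown because these genes encode almost the same protein, and the first had a peak upstream in every list while the other had none. Of the 5 members, 2 matched the RefSeq promoter table for GRCm38.p6, and each entry is the minus strand, from upstream of the start site to just past it. Each of these genes has 2 entries, and the one that lies furthest upstream is shown. The *Ly6c2* entry shown is chr15:75111922-75112221 and the *Ly6c1* entry shown is chr15:75048788-75049087. Capitals mark a match to the RUNX motif TGTGGT or its reverse complement.
Ly6c2: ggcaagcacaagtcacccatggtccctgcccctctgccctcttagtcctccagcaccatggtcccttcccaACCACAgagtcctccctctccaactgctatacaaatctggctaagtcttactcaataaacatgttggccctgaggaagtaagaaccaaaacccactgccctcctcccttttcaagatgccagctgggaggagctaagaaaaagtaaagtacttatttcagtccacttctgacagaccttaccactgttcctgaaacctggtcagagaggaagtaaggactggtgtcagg
Ly6c1: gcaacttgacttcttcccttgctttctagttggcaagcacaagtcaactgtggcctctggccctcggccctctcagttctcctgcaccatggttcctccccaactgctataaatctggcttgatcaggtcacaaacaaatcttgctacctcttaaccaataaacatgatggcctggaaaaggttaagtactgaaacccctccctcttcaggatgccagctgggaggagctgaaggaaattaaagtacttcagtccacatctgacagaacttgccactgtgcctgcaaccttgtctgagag
The promoters were identical at 214 of 262 aligned bases, or 81.7%. *Ly6c2* held 1 RUNX match and *Ly6c1* none, and 16.8% of the 32851 promoters in the table held one on either strand. Neither held a match to the STAT motif TTCNNNGAA, the IRF motif GAAANNGAA, the ETS motif CCGGAAGT or the T-box motif AGGTGTGA, which 8.30%, 8.56%, 3.89% and 1.28% of promoters held. The peaks of *Ly6c2* began upstream of this window in all 5 lists, so neither promoter was itself covered by a peak.

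*Ly6c1* (ENSMUSG00000079018.10, minus strand, 75044018 to 75048830, 4813 bp) had no peak in its body or within 10 kb of it in any list. The nearest peak was 46615 bp away in WT 1, 53978 bp in WT 2, while TPdh-/- 1, 2 and 3 had it at 53763, 66066 and 53869 bp. In TPdh-/- 2 this was the upstream peak of *Ly6c2*, and in the others it lay on the opposite side, in *Ly6a* or between *Ly6i* and *Ly6a*. A missing peak says that no stretch passed the caller's threshold, which was a −log10 q of about 1.00 to 1.03 in the weakest peaks of these lists, and not that acetylated histones were absent.

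Reads that map to more than one place were removed before peaks were called, so the share of unique sequence bears on what can be listed at near-identical genes. The bodies of *Ly6c1* and *Ly6c2* were 96.8% identical over 3818 aligned columns, and those of *Ly6a* were 84.0% and 84.8% identical to *Ly6c1* and *Ly6c2* over 2469 and 2135 columns. No such alignment was found for *Ly6e* or *Ly6k*. Of the 51-base sequences in the body, as long as the reads, 63.5% occurred once in GRCm38 in *Ly6c1* and 63.5% in *Ly6c2*, against 83.9% in *Ly6a*, 99.0% in *Ly6k* and 100% in *Ly6e*. *Ly6c1* shared 1278 of its 4763 51-base sequences with *Ly6c2*, or 26.8%, and 262, or 5.50%, with *Ly6a*. With 10 kb on either side, 57.4% of the 51-base sequences were unique for *Ly6c1*, 62.8% for *Ly6c2*, 76.8% for *Ly6a*, 92.3% for *Ly6e* and 97.8% for *Ly6k*. The bodies of *Ly6c1* and *Ly6c2* held about the same share of unique sequence, but the *Ly6c2* peaks lay upstream of its body. The region of those peaks was 87.6% unique, and the aligned stretch upstream of *Ly6c1*, which had no peak, was 40.6% unique. *Ly6k*, with nearly all of its sequence unique, had no peak. The part of the removed reads in the missing peaks was not tested.

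The upstream region of *Ly6c2* belongs to a repeated segment of the cluster, and 87.6% of its 51-base sequences were unique. A search of the same stretch of the cluster for sequence aligned to it over at least 250 columns found 12 copies, between 78.3% and 86.8% identical. A peak was listed at 1 of the 12, the most alike, which lies between *Ly6i* and *Ly6a* and had a peak in 4 lists. The copy upstream of *Ly6c1*, from 75050316 to 75051609, was 81.4% identical with 40.6% of its 51-base sequences unique, and the copy upstream of *Ly6a*, from 74999413 to 75000473, was 84.8% identical with 32.9% unique. Neither had a peak. The copy upstream of *Ly6g*, from 75152460 to 75153786, was 81.7% identical and 98.4% unique, and had no peak either. Of the 8 copies with at least 80% unique sequence, 1 had a peak, and of the 4 with less, none had.

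**Figure D2:**
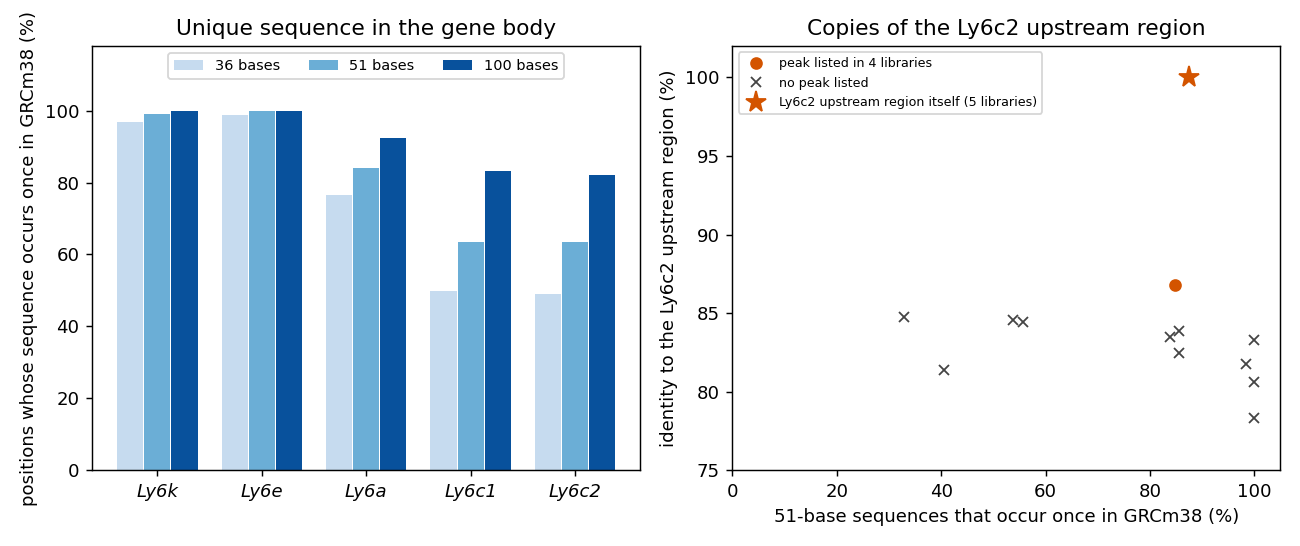
Unique sequence at the Ly6 genes. The left panel shows, for each gene body, bars for the percent of positions whose sequence of 36, 51 or 100 bases occurs once in GRCm38, with *Ly6c1* and *Ly6c2* at 63.5% for 51 bases and *Ly6e* at 100%. The right panel plots the 12 copies of the *Ly6c2* upstream region by their percent of unique 51-base sequences and their percent identity, with the only copy with a listed peak as a filled circle at 86.8% identity and the region itself as a star.

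The middle of the part that the *Ly6c2* peaks have in common with its copies next to *Ly6a* and *Ly6c1* is shown at 3 places, to compare sequence that lies under a peak with sequence that does not. On the plus strand of GRCm38 these are chr15:75115487-75115786 upstream of *Ly6c2*, under a peak in all 5 lists, chr15:74989518-74989807 between *Ly6i* and *Ly6a*, under a peak in 4, and chr15:75051114-75051403 upstream of *Ly6c1*, with no peak. Capitals mark bases that differ from the *Ly6c2* stretch or have no base aligned to them there, and bases missing from a copy are not marked.
Ly6c2 upstream: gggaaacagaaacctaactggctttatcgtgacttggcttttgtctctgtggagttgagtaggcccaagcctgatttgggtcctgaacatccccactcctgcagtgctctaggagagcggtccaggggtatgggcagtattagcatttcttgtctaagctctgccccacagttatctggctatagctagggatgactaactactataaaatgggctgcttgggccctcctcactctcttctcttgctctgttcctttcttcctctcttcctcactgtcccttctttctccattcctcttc
Between Ly6i and Ly6a: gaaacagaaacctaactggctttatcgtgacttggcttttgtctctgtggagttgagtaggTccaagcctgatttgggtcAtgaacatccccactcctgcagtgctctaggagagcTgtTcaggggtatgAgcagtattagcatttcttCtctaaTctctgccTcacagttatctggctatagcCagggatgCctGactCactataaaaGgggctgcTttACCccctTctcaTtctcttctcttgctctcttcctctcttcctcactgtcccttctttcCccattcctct
Ly6c1 upstream: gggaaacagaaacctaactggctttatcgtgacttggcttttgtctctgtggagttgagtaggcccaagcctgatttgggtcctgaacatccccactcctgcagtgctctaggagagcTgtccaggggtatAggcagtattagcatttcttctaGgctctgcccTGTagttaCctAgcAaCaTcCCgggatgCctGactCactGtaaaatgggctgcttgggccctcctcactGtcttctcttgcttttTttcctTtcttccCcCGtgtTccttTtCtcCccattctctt
The stretch between *Ly6i* and *Ly6a* was identical to that of *Ly6c2* at 270 of 288 aligned bases, or 93.8%, and the stretch upstream of *Ly6c1* at 263 of 289, or 91.0%. Each of the 3 held the IRF match GAAACAGAA, the stretch upstream of *Ly6c1* also held TTCCTTTTC on the other strand, and none held a match to the STAT, RUNX, ETS or T-box motif. Of the 300-base centres of the 18410 joined regions, 11.4% held an IRF match on either strand. This motif was found both with and without a listed peak over it. In the copy upstream of *Ly6c1*, 40.6% of the 51-base sequences were unique, and reads that map to more than one place were removed. The share in the stretch shown was not measured by itself. The missing peak was not read for or against the motif, and a link of the motif to the peaks was not tested.

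*Ly6a* (ENSMUSG00000075602.10, minus strand, 74994877 to 74998031, 3155 bp) had a peak on its 3′ side in 4 lists and a peak in its body in 1. The 3′ peak overlapped the copy between *Ly6i* and *Ly6a* in part, and covered 40.2% to 47.6% of that copy in the 4 lists. It also covered part of the pseudogene *Gm8000*, which was its nearest gene. The nearest protein-coding gene was *Ly6i* in WT 1, WT 2 and TPdh-/- 3, and for the joined region, at 4476 bp, with *Ly6a* nearly as close. In TPdh-/- 1 it was *Ly6a*, at 4622 bp against 4726 bp to the start of *Ly6i*. The peak ran from 74987917 to 74990146 in WT 1, from 74987906 to 74990040 in WT 2, from 74988156 to 74990255 in TPdh-/- 1 and from 74987942 to 74990149 in TPdh-/- 3, at 4731, 4837, 4622 and 4728 bp from the *Ly6a* body. No peak was listed there in TPdh-/- 2.

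This was a weaker peak than that of *Ly6c2* in each of the 4 lists. Its −log10 q was 3.92 and 2.21 in WT 1 and 2, and 1.16 and 2.55 in TPdh-/- 1 and 3. It ranked 8121, 6247, 4801 and 6287, at percentiles of 49.1, 29.5, 2.43 and 33.3. TPdh-/- 1 listed it close to the end of its list, and TPdh-/- 3 had it at a higher percentile than WT 2, so the genotypes overlapped. The fold enrichment was 1.79 and 1.81 in WT and 1.93 and 1.82 in TPdh-/- 1 and 3, and the width between 2100 and 2230 bp. A peak in every list but TPdh-/- 2 was found at 4.74% of joined regions.

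The peak within *Ly6a* was listed in WT 1 alone, from 74996858 to 74997403, in an intron 628 bp downstream of the gene's first start site. It lay 231 bp from the nearest of the 6 annotated start sites of *Ly6a*. It was narrow, at 546 bp, and among the weakest of its list, with a −log10 q of 1.44, a fold enrichment of 1.77 and a rank of 14941. A peak in WT 1 alone, the longest list, was the case for 30.9% of joined regions.

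*Ly6e* (ENSMUSG00000022587.14, plus strand, 74955051 to 74959905, 4855 bp) had a peak over its start site and exonic sequence in all 5 lists, and was the only member with one at a start site in any. The peak ran from 74954616 to 74956918 in WT 1, from 74954437 to 74956745 in WT 2, and from 74954985 to 74957046, 74954712 to 74956174 and 74954558 to 74956772 in TPdh-/- 1, 2 and 3. All shared 1190 bp, from 74954985 to 74956174. No copy of this region was found in the cluster, and each of its 51-base sequences was unique.

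The −log10 q of the *Ly6e* peak was 6.93 and 3.84 in WT and 1.82, 2.61 and 4.46 in TPdh-/-. It ranked 3743, 3429, 3642, 2971 and 3288 in the 5 lists, a narrow range, at percentiles of 76.6, 61.3, 26.0, 45.2 and 65.1. TPdh-/- 3 was above WT 2 on both measures. The means of 5.38 ± 2.18 (SD, n = 2) and 2.96 ± 1.35 (SD, n = 3) differed by 2.42 (exact permutation test, two-sided, p = 0.4), and the percentiles of 68.9 ± 10.8 and 45.4 ± 19.6 by 23.5 (exact permutation test, two-sided, p = 0.4). With lists of equal length the percentiles were 23.9 and 30.3 in WT and 26.0, 39.6 and 33.2 in TPdh-/-, and the difference turned to −5.81.

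The fold enrichment of the *Ly6e* peak was slightly lower in both WT lists than in all TPdh-/- lists, and its width was higher. The fold was 2.05 and 2.03 in WT and 2.11, 2.07 and 2.14 in TPdh-/-, with means of 2.04 ± 0.0100 (SD, n = 2) and 2.11 ± 0.0351 (SD, n = 3; exact permutation test, two-sided, p = 0.2). The peak was 2303 and 2309 bp wide in the WT libraries, against 2062, 1463 and 2215 bp with TPdh-/-, with means of 2306 ± 4.24 and 1913 ± 397 bp (exact permutation test, two-sided, p = 0.2). Of the 3099 regions with a peak in all lists, 11.6% had a lower fold and 33.5% a greater width in both WT lists than in every TPdh-/- list.

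A further peak near *Ly6e* was listed in TPdh-/- 3 alone, from 74967547 to 74968189, 7642 bp beyond the 3′ end of the gene, which was its nearest. It was 643 bp wide, with a fold enrichment of 2.27, a −log10 q of 2.76 and a rank of 5869. A peak in TPdh-/- 3 alone was found at 3.87% of joined regions. Outside the 10 kb limit, a region from 74932018 to 74935610 at the noncoding gene *Gm39556* had a peak in every list but TPdh-/- 2, and its nearest protein-coding gene was *Ly6e*, at 19441 bp.

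**Figure D3:**
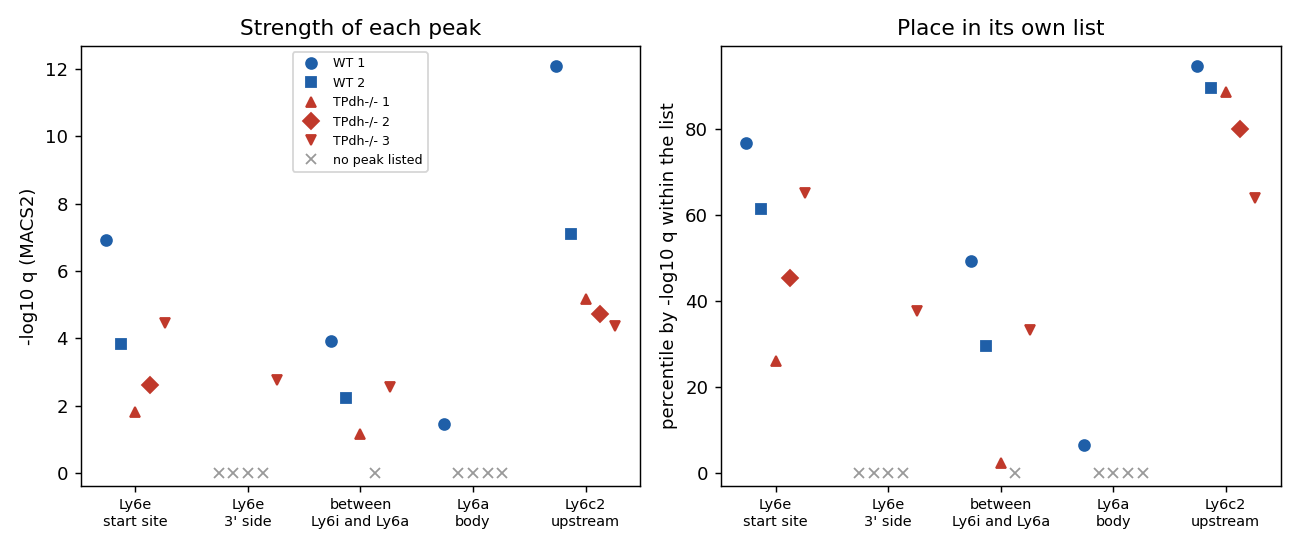
Strength of each peak at the Ly6 genes. The left panel plots −log10 q and the right panel the percentile within the list, one point per library, with crosses where no peak was listed. For the *Ly6c2* upstream peak both WT points stand above the 3 TPdh-/- points in each panel, at 12.1 and 7.10 against 4.36 to 5.15 on −log10 q, and for *Ly6e* TPdh-/- 3 lies between WT 1 and WT 2.

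*Ly6k* (ENSMUSG00000044678.11, minus strand, 74796874 to 74799986, 3113 bp), which is expressed in the male germ line, had no peak within 10 kb in any list. The nearest was 26770 and 26804 bp away in WT and 27094, 27048 and 26847 bp away in TPdh-/-, and was the same region in all 5, which lies 804 bp from *D730001G18Rik* and, by start sites of coding genes, nearest to *Ly6d*. Among the 21 other genes listed for the cluster, 18 were found on chromosome 15 and 3 were not. A peak within 10 kb was listed in all 5 libraries for 3 of the 18 (*Psca*, *Ly6d* and *D730001G18Rik*), in 1 to 4 for 5 (*Slurp1*, *Slurp2*, *Lynx1* and *2010109I03Rik* in WT 1 alone, and *Ly6i* in 4 lists), and in none for 10. Of these genes, 8 and 4 had a peak in WT and 4, 3 and 4 in TPdh-/- (exact permutation test, two-sided, p = 0.6), and the higher mean in WT, 6 ± 2.83 (SD, n = 2) against 3.67 ± 0.577 (SD, n = 3), rested on WT 1. Over all protein-coding genes the shares were 54% and 36.4% in WT and 23.2%, 24.7% and 39.2% in TPdh-/-. The genes were not independent, since *Ly6d* and *D730001G18Rik* shared a peak, *Slurp2* and *Lynx1* did too, and *Ly6i* had the peak also counted for *Ly6a*.

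The peaks at the Ly6 genes were broad and low for their lists. The 14 peaks of *Ly6e* (start site), *Ly6c2* and the region between *Ly6i* and *Ly6a* ranged from the 86.4 to the 99.2 percentile by width within their lists, and from 1.78 to 30.9 by fold enrichment. Breadth and low fold went together in the lists as a whole, where 84.6% to 88.9% of the peaks at least 2000 bp wide lay below the median fold of their list. The narrow peaks, those of the *Ly6a* body and of the 3′ side of *Ly6e*, were at the 2.42 and 10.9 percentile by width and at 4.13 and 29.9 by fold.

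**Figure D4:**
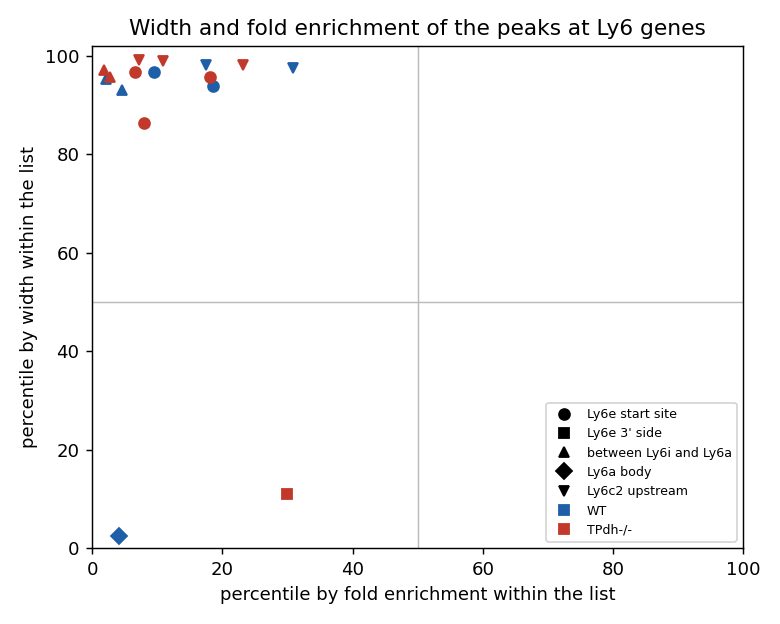
Width against fold enrichment. Each point is a peak at a Ly6 gene, by its percentile by fold enrichment (horizontal axis) and by width (vertical axis) within its own list, with shapes for regions and colours for genotypes. All points lie to the left of the median fold, and all but the *Ly6a* body peak and the *Ly6e* 3′ peak lie at or above the 86.4 percentile by width.

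Summed over the 5 genes, the genes with a peak, the peaks and the covered length overlapped between the genotypes. So few genes and libraries cannot show that the genotypes were alike. Over all protein-coding genes, 54% and 36.4% had a peak within 10 kb in WT and 23.2%, 24.7% and 39.2% in TPdh-/-. A peak lay at 3 of the 5 Ly6 genes in each WT list and at 3, 2 and 3 in the TPdh-/- lists, a mean of 3 ± 0 (SD, n = 2) against 2.67 ± 0.577 (SD, n = 3; exact permutation test, two-sided, p = 1). The peaks numbered 4 and 3 in WT and 3, 2 and 4 in TPdh-/-, a mean of 3.5 ± 0.707 against 3 ± 1 (exact permutation test, two-sided, p = 1). They covered 7869 and 7045 bp for WT, against 6444, 4064 and 8104 bp for TPdh-/-, and the widest coverage was therefore in a TPdh-/- library (means 7457 ± 583 and 6204 ± 2031 bp, exact permutation test, two-sided, p = 0.6). The percentile of the strongest peak was higher in both WT lists, at 94.5 and 89.4, than in TPdh-/-, at 88.5, 79.9 and 65.1 (exact permutation test, two-sided, p = 0.2). This was the *Ly6c2* peak again in all lists but TPdh-/- 3, where it was that of *Ly6e*. Of the 3099 regions with a peak in all 5 lists, 29.5% had a higher percentile in both WT lists than in every TPdh-/- list. Over the 5 genes, the average percentile, with 0 where no peak was listed, was 44.03 and 36.04 in WT and 23.39, 25.01 and 32.46 in TPdh-/- (means 40.0 ± 5.65 and 27.0 ± 4.84, exact permutation test, two-sided, p = 0.2). How often other sets of 5 genes take such an order was not tested. With lists of equal length the difference in average percentile shrank from 13.1 to 1.82, and the differences in genes, peaks and covered length became negative, with more in TPdh-/-. The difference in strongest percentile stayed, at 15.0 against 14.1, but the genotypes then overlapped, at 82.1 and 80.9 in WT and 88.5, 77.8 and 33.2 in TPdh-/-.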

How the data were processed

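Peak lists of 5 ChIPseq libraries were analysed. Per the submitters' notes and the methods, the authors checked reads with FastQC 0.11.9, aligned them to GRCm38/mm10 with BWA 0.7.17, filtered for uniquely mapping reads and against blacklisted regions with SAMtools 1.15.1, and ran MACS2 2.2.6 for broad peaks, a list per library. Reads were 51 bases long. The lists do not hold read numbers, so the depth is unknown and no counting interval is given. The deposited columns used are the fold enrichment (a linear ratio over the background) and −log10 q of each peak, while the −log10 p and the score that the authors deposited were not used.

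Peaks were assigned to GENCODE M21 genes (Python 3.11.15, numpy 2.4.6, pandas 2.3.3, scipy 1.17.1) by an overlap of at least 1 bp with the gene body or 10 kb of it. Groups were compared by two-sided exact permutation tests, with p double the smaller one-sided p. Copies were aligned with blastn 2.17.0, and unique sequences were those found once in GRCm38 on either strand. The genes named are the members, the other cluster genes with a peak, genes nearest to a peak, markers, and for each member with a peak the 3 coding genes closest in percentile over the 5 lists. Members and lists were chosen with earlier results of these data known, and the copies, the 80% limit on unique sequence and the 2000 bp width were chosen after values were seen. Alternatives were −log10 q limits of 2 and 5, equal list lengths, windows of 3 kb, 50 kb or the body alone, midpoints, a width of at least 1000 bp, ranks by fold, the replicate block and leaving out each library.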

Additional observations from a re-analysis of the deposited data

How the results depend on the processing

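Differences are WT minus TPdh-/-. With lists of equal length, the difference was −0.333 in genes with a peak, −0.333 in peaks, −252 bp in covered length and −5.81 in the percentile of the *Ly6e* peak, all reversed, and 1.82 in mean percentile and 0.333 in other cluster genes. It remained at 15.0 in strongest percentile and 15.7 in the percentile of the *Ly6c2* peak, with the genotypes overlapping in both. At a −log10 q limit of 2 the difference in genes was 1, and at 5 it was 1.17, with 3086 bp covered and 68.3 in strongest percentile. The strongest percentiles at a limit of 5 were 85.7 and 56.7 in WT and 8.66, 0 and 0 in TPdh-/-. Here 0 stands for a list with no peak left at the 5 genes. The *Ly6c2* peaks of TPdh-/- 2 and 3, at a −log10 q of 4.71 and 4.36, fell below that limit. A 3 kb window gave 0.833 genes and 34.9 in strongest percentile, and a 50 kb window 2.83 peaks, 3953 bp, 21.6 in mean percentile and 0.5 other genes. The body alone gave a mean percentile difference of 5.34, and ranks by fold gave 2.96 in strongest and 2.33 in mean percentile. The 3 kb window left out the *Ly6c2* peak of TPdh-/- 1, which lay 3288 bp from the gene. The strongest percentile of that list was then 26.0. What else moved these values was not tested. Without WT replicate 1 or 2, the difference in other cluster genes was 0.333 or 4.33, its lowest and highest on leaving out a library. The other ranges were 0 to 0.5 genes, 0 to 1 peaks, 183 to 2203 bp (lowest without TPdh-/- 2), 7.73 to 19.4 in strongest percentile and 9.08 to 17.1 in mean percentile. Replicate numbers were shared between the groups by name only. The replicate block, which leaves out TPdh-/- 3, gave 0.5 genes, 1 peak, 2203 bp, 7.73 in strongest and 15.8 in mean percentile, and 2.5 other genes. No p fell under 0.05 in any of these, as the design cannot reach it. Without read numbers, a peak unlisted for want of depth and one unlisted for want of signal cannot be told apart.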

Other observations

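Genes whose strongest peak within 10 kb took the most similar percentiles across the 5 lists were sought for each member with a peak. For *Ly6c2* these were *Pip4p2*, *Mink1* and *Riok3*, at Euclidean distances of 8.21, 10.9 and 12.3 percentile points over 5 lists. *Pip4p2* was at percentiles of 95.6 and 89.5 in WT and 81.4, 76.0 and 64.4 in TPdh-/-. For *Ly6e* they were *Herpud1*, *Osbpl5* and *Bnip3l*, at distances of 8.33, 9.55 and 13.2. *Herpud1*, a gene of the endoplasmic reticulum stress response, was at 79.6 and 57.2 in WT and 27.1, 51.2 and 62.6 in TPdh-/-, with TPdh-/- 3 above WT 2 as for *Ly6e*. For *Ly6a* the closest was *Ly6i*, at a distance of 0 because both were assigned the same peak, followed by *Exoc6* and *Tmem218* at 3.79 and 6.09. These distances are a description over 5 libraries that differ in list length.

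Within the cluster, *Psca* was at percentiles of 88.5 and 87.5 in WT and 85.4, 63.8 and 97.7 in TPdh-/-, through a peak over the neighbouring gene *Jrk*, so its highest place was in TPdh-/- 3. *Ly6d*, which encodes a surface protein of lymphoid progenitors and B lineage cells, was at 82.5 and 78.2 in WT and 65.4, 30.6 and 38.4 in TPdh-/-. *Ly6g*, which encodes a marker of neutrophils, had no peak in any list.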
